A study of Mus musculus with 4 samples.

Results

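RNA polymerase II, the enzyme that transcribes the protein-coding genes of the nucleus, is assembled from a large catalytic subunit, Polr2a, a second large subunit, Polr2b, and a set of small subunits. The rows of 10 of its genes were taken by name from the deposited tables, namely Polr2a, Polr2b, Polr2c, Polr2d, Polr2e, Polr2f, Polr2g, Polr2h, Polr2i and Polr2k, and all 10 were found among 37718 gene rows. The set was selected on the gene count of Polr2a, which was lower in one genotype of these same samples. The values of Polr2a between the genotypes are therefore given as a description with no test, and the tests concern the other 9 genes.

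The cells came from testes of mice at 20 dpp (days post partum) that were Tdrd6+/- (2 samples) or Tdrd6-/- (2 samples). TDRD6 is a tudor domain protein of the chromatoid body, an RNA granule of male germ cells. In both genotypes the cells carried human CD4 expressed from the Tdrd6 promoter and were purified with magnetic beads against it. The study describes the preparations as mostly, not wholly, diplotene spermatocytes, which are in late meiotic prophase. Each sample was a pool of at least 4 mice. Total RNA was depleted of rRNA and sequenced, and the study compared the genotypes for splicing defects. There was no wild-type sample among those used here. Nothing in the labels ties the samples that carry the same number to each other. The p-values rest on 2 pools per genotype, and the fits moderate the spread of each gene toward that of other genes. Values with ± are the mean and SD of the 2 samples of a genotype (n = 2).

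Gene counts came to 26454326 to 31388750 per sample and intron counts to 9603669 to 13937818, with the lowest intron total in Tdrd6-/- sample 2. Tdrd6, the gene that was deleted, had 33220 and 39322 counts in Tdrd6+/- and 359 and 400 in Tdrd6-/- cells. Late spermatocyte markers were abundant, the summed level of 8 of them being 7670 to 8946 CPM (counts divided by library size after TMM scaling) over the samples, with Sycp1 called higher and Piwil1 called lower in Tdrd6-/- cells, each in only some of the alternative fits. Of 6 round spermatid markers, 2 could be tested, Acrv1 and Spaca1, and both were called higher (log2 fold change 0.96 and 0.83). Over all genes tested 1.02% were called higher and 3.78% lower. Neither marker was called without Tdrd6+/- sample 1 (0.58 and 0.72) or without Tdrd6-/- sample 1 (0.80 for each). Spaca1 was also not called without Tdrd6-/- sample 2 (0.87). The summed level of the list was 9.20 and 13.1 CPM in Tdrd6+/- and 21.7 and 19.7 CPM in Tdrd6-/- cells. The other 4 of these markers, the transition proteins Tnp1 and Tnp2 and the protamines Prm1 and Prm2, were at or near 0 in every sample, at most 0.316 CPM. Of 6 markers of spermatogonia and early meiosis, 6 of Sertoli cells, 5 of Leydig cells, 2 of peritubular cells and 2 of macrophages, none passed the test, and the summed levels did not exceed 48.5 CPM. The part of the higher spermatid markers in the results that follow was not tested. In such bulk samples, fewer cells of a type and less RNA per cell cannot be told apart.

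In the complex, Polr2a and Polr2b form the active centre. Polr2a also carries the C-terminal domain, a tail of repeated heptads whose phosphorylation couples transcription to capping, splicing and 3′ end processing. Polr2c belongs to the platform on which the large subunits assemble, Polr2d and Polr2g form the stalk, and Polr2i acts in elongation and fidelity. Polr2e, Polr2f, Polr2h and Polr2k are shared with RNA polymerases I and III.

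The gene Polr2a (ENSMUSG00000005198) spans bases 69733997 to 69758637 of chromosome 11 in mm10 and is read from the minus strand. Its transcript Polr2a-201 has 29 exons and 6740 bases, and its first intron spans 10017 bases. The sequences of 4 of its exon junctions, read from the GENCODE M21 transcript, are shown because they mark the places along the mRNA where the counts are given below: the first junction, the junction at which counts differed most between the genotypes, an annotated skip of exon 27, and the last junction. Each has 15 bases on either side, 5′ to 3′ on the coding strand, with the downstream exon in capitals. All lie in coding sequence.
Exon 1 to exon 2: agtccggatgaattgAAGCGGATGTCTGTG
Exon 19 to exon 20: ttcaaccaagccattGCCCATCCTGGAGAA
Exon 26 to exon 28: tgggggctgctggacGGAGCGGGATGACCC
Exon 28 to exon 29: acatcccctcaccagGTGGTGCTATGTCTC
On chromosome 11 of mm10 these junctions join base 69758131 to 69748113, base 69740999 to 69740481, base 69736139 to 69735799 and base 69735650 to 69735566, in the same order.

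Polr2a was lower in both Tdrd6-/- samples than in both Tdrd6+/- samples, and the exonic counts were lower by more than the intronic counts. The gene count was 6824 and 7124 in Tdrd6+/- cells and 2451 and 2082 in Tdrd6-/- cells. Scaled to library size, this was 258 ± 3.43 CPM against 71.3 ± 8.81 CPM. The level was 3.62 times lower, and the log2 fold change came to -1.86 (SE 0.137). Introns of Polr2a held 1510 and 1661 counts in Tdrd6+/- cells and 1132 and 831 in Tdrd6-/- cells. Against the intron counts of each sample this was 128 ± 12.6 CPM and 82.5 ± 1.65 CPM, and the log2 fold change came to -0.64 (SE 0.211). The genotypes did not overlap for either quantity, as was so in the lower direction for 23.4% of all genes in gene counts and 21.4% in intron totals. Of 16555 genes tested for gene expression 4.8% passed a false discovery rate of 0.1, 3.78% with lower and 1.02% with higher counts in Tdrd6-/- cells, and 14 genes had a log2 fold change at or below that of Polr2a, itself included. Among those 14, only Polr2a and the deleted gene, Tdrd6, reached a mean of 100 CPM in Tdrd6+/- cells. Polr2a was chosen for its lowered count, so this rank is a description only.

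**Figure D1:**
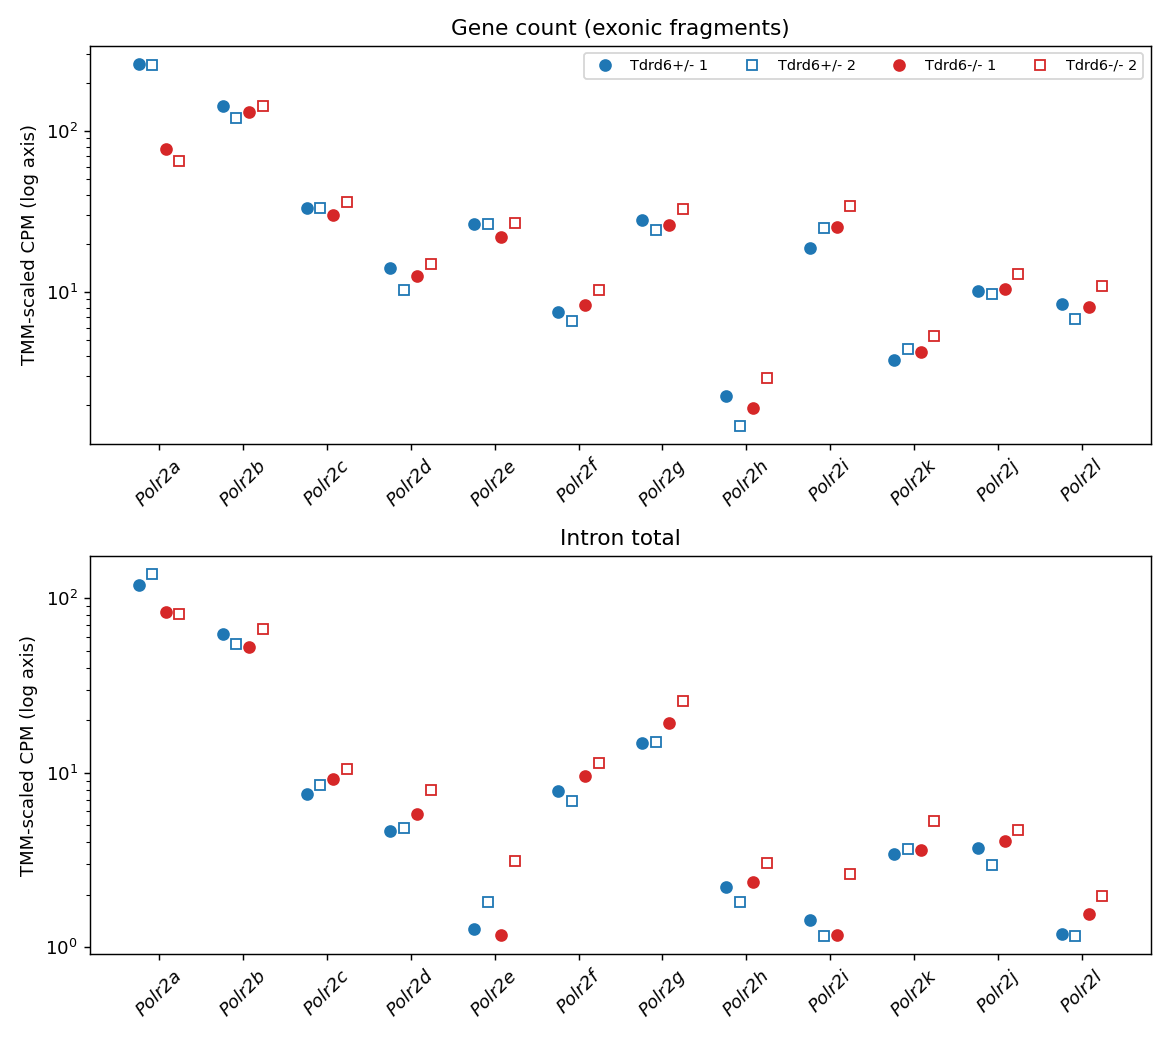
Levels of 12 subunit genes in each of the 4 samples, in CPM on a log axis, for gene counts (upper panel) and for intron totals (lower panel); blue marks are Tdrd6+/- and red marks Tdrd6-/- samples, filled for sample 1 and open for sample 2. Polr2a falls from 261 and 256 CPM to 77.5 and 65.1 CPM in gene counts. No other gene has both Tdrd6-/- marks below both Tdrd6+/- marks in either panel. Marks of genes with few counts scatter, as for Polr2h in gene counts (1.47 to 2.94 CPM) and Polr2e in intron totals (1.18 to 3.13 CPM).

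Relative to its exonic counts, Polr2a held more intronic counts in Tdrd6-/- cells. There were 22.1 and 23.3 intron counts per 100 gene counts in Tdrd6+/- cells and 46.2 and 39.9 in Tdrd6-/- cells. The intron change minus the gene change was 1.19 on the log2 scale (SE 0.170), a value that 2.23% of 15589 genes reached or exceeded. The median of all these genes was 0.03, with quartiles of -0.21 and 0.24. Among 540 genes called lower in gene expression the median was 0.28, 470 were above 0, and 2.96% were at least as high as Polr2a. Polr2a was selected on its low gene count, which is subtracted in this difference, so its place among all genes is a description only. With 1 scaling factor per sample for both kinds of count the value was 0.92, and the median of all genes moved by -0.27, so that Polr2a then lay 1.15 above that median.

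The exonic counts of Polr2a were not reduced to the same extent along the gene. The authors divided it into 37 exon segments and 29 annotated junctions, and all of them could be placed on the annotation. In each of the 37 segments both Tdrd6-/- samples lay below both Tdrd6+/- samples. The same held for 25.3% of all exon segments with at least 10 counts. Polr2a was selected on its gene count, of which these segments are parts, so their shared direction is a description only. Counts on the 5′-most segment, in exon 1, were 277 and 259 for Tdrd6+/- and 151 and 150 for Tdrd6-/- cells, a log2 ratio of mean CPM of -1.07. From there the ratio became more negative over the following segments, being -1.24, -1.40, -1.50 and -1.52 at the second to the fifth and -2.26 at the sixteenth. In the 4 segments nearest the 5′ end, Tdrd6-/- cells kept 40.0% of the summed CPM of Tdrd6+/- cells, against 27.6% in segments 5 to 16 and 20.6% in segments 17 to 37. In the last of these groups single segments ranged from -2.56 to -1.36, and the least reduced of them was segment 36, within the last exon, with 86 and 117 counts in Tdrd6+/- and 42 and 51 in Tdrd6-/- cells. A fragment can count on several segments, so the sums exceed the gene count. The 4 segments that lie outside Polr2a-201 had only 18 to 149 counts over all samples.

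Junction counts, which come from spliced reads, were also reduced least at the 5′ end and most past the middle. Exon 1 was joined to exon 2 by 98 and 94 counts in the Tdrd6+/- and 47 and 49 in the Tdrd6-/- samples, the smallest reduction of any junction with counts, at a log2 ratio of -1.24. For exon 19 to exon 20 there were 204 and 208 against 39 and 37 counts, a log2 ratio of -2.67. At the junction of exon 28 and exon 29 there were 15 and 23 against 6 and 8 counts, a log2 ratio of -1.67. The junction that skips exon 27 had 0 counts in each of the 4 samples, so no use of it was detectable at this depth. Over the 28 junctions with counts the sum was 169 ± 2.48 CPM in Tdrd6+/- and 41.1 ± 5.51 CPM in Tdrd6-/- cells, 24.2% of the Tdrd6+/- level. Each of the 28 was lower in both Tdrd6-/- samples, as were 23.3% of all junctions with at least 10 counts. The junctions, too, belong to the gene count on which Polr2a was selected.

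Its segments were split in order into 12 on the 5′ side, 13 in the middle and 12 on the 3′ side. As the log2 of counts on the 5′ side over those on the 3′ side, Polr2a was at 1.62 and 1.35 in Tdrd6+/- cells and at 1.88 and 2.26 in Tdrd6-/- cells. The difference was 0.59, and 1.88% of 2611 genes with at least 10 placed segments and enough counts on both sides had a difference as high. The median difference of these genes was 0.09, with quartiles of -0.04 and 0.20. The 3′ side was poorly covered in both genotypes, with 1491 counts per kb in the Tdrd6+/- samples together against 5104 on the 5′ side and 5915 in the middle. In Tdrd6-/- cells the 3′ side, 5′ side and middle had 369.9, 1889 and 1516 counts per kb. In Polr2b, the other large subunit, the same measure was 0.03 and 0.11 in Tdrd6+/- and 0.11 and 0.06 in Tdrd6-/- cells, a difference of 0.02 with overlapping genotypes (p = 0.67 by a two-sided exact permutation test, where 2 samples against 2 cannot give a p below 0.33).

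The first intron held the most counts of any intron and was reduced less than the sum of the other introns. It had 519 and 623 counts in Tdrd6+/- and 545 and 331 in Tdrd6-/- cells, which was 46.3 ± 7.37 against 36.3 ± 5.57 CPM, or 78.5% of the Tdrd6+/- level. Tdrd6-/- sample 1, at 40.3 CPM, lay just below Tdrd6+/- sample 1, at 41.1 CPM. The other 25 introns together had 991 and 1038 against 587 and 500 counts, which was 82.1 ± 5.22 against 46.1 ± 3.92 CPM, or 56.2% of the Tdrd6+/- level. Within these 25, the 8 on the 5′ side, the next 9 and the last 8 were at 54.1%, 60.1% and 53.8%. Of 25 introns of Polr2a with at least 10 counts, 22 were lower in both Tdrd6-/- samples and none was higher in both, while 20.9% of all introns with at least 10 counts were lower in both. The log2 of counts on the first intron over the others was -0.93 and -0.74 in Tdrd6+/- and -0.11 and -0.60 in Tdrd6-/- cells. This difference of 0.48 was reached or exceeded by 5.33% of 1088 genes with at least 10 placed introns and enough counts.

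Introns of Polr2a also differed by length. The 13 introns under 150 bases had 346 and 418 counts in Tdrd6+/- and 167 and 123 in Tdrd6-/- cells, 39.4% of the Tdrd6+/- level in CPM. The 12 longer ones, the first intron left out, had 645 and 620 against 420 and 377 counts, 66.4% of that level. The longest of the latter, of 1874 bases between exons 22 and 23, had 59 and 55 against 55 and 45 counts, a log2 ratio of -0.12. The stretches between exons 17 and 18 and between exons 24 and 25 were counted as exon segments and are not among these introns. The split at 150 bases was chosen after the values were seen, and a fragment counted on a short intron can reach into the neighbouring exons.

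Polr2b, which completes the active centre, had 3763 and 3340 counts in Tdrd6+/- and 4174 and 4558 in Tdrd6-/- cells. The genotypes overlapped at 132 ± 16.8 and 137 ± 7.37 CPM, and the log2 fold change was 0.06 (interval of 2 SE from -0.21 to 0.33, adjusted p = 0.909 by the quasi-likelihood test of edgeR, adjusted by the Benjamini-Hochberg method). Its intron total of 791 and 664 against 715 and 679 counts also overlapped (log2 fold change 0.02, interval from -0.41 to 0.45). A change in Polr2b of the size given for Polr2a lies outside both intervals. Per kb of annotated exon, Polr2a was 1.197 and 1.409 times the level of Polr2b in Tdrd6+/- cells and 0.388 and 0.302 times in Tdrd6-/- cells.

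None of the 9 other subunits was called in gene expression by edgeR at a false discovery rate of 0.1, or by DESeq2. By either tool 1 of the 9 had an unadjusted p under 0.05, which was Polr2i by edgeR. Over all genes edgeR gave such a p for 2316 of 16555. Their log2 fold changes ran from -0.10 to 0.45 with a median of 0.18, and 7 of 9 were above 0, against a median of 0.012 and 51.7% above 0 over all genes tested. Without Tdrd6-/- sample 2 their median was 0.04, without Tdrd6+/- sample 2 it was 0.09, and without Tdrd6-/- sample 1 it was 0.33. The 2 genes whose Tdrd6-/- samples both exceeded both Tdrd6+/- samples were Polr2f and Polr2i, and none had both below. Over all genes 20.1% were higher and 23.4% lower in this sense. In all 9 of them Tdrd6-/- sample 2 was above Tdrd6-/- sample 1.

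Of the subunits specific to RNA polymerase II, Polr2i came nearest to a call. It had 491 and 698 counts in Tdrd6+/- and 799 and 1102 in Tdrd6-/- cells, or 18.8 and 25.1 against 25.3 and 34.4 CPM, and the log2 fold change was 0.45 (SE 0.188, adjusted p = 0.264 by edgeR's quasi-likelihood test). The lowest Tdrd6-/- sample and the highest Tdrd6+/- sample were thus nearly equal. Without Tdrd6+/- sample 2 the adjusted p by edgeR was 0.0946. Polr2c, part of the assembly platform, was at 33.2 ± 0.140 CPM in Tdrd6+/- and 33.2 ± 4.41 CPM in Tdrd6-/- cells, and its log2 fold change had an interval of 2 SE from -0.32 to 0.32 about 0. The stalk subunit Polr2d was at 14.1 and 10.3 against 12.5 and 15.03 CPM, and its partner Polr2g at 27.9 and 24.4 against 26.3 and 32.9 CPM, with log2 fold changes of 0.18 for each. Both pairs of groups overlapped.

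Of the subunits shared by the 3 nuclear polymerases, Polr2f, Polr2h and Polr2k had the lowest CPM of all 10 genes in Tdrd6+/- cells. Polr2e was at 26.3 and 26.4 CPM in Tdrd6+/- and 22.1 and 26.9 CPM in Tdrd6-/- cells, and its log2 fold change was -0.10 (interval of 2 SE from -0.44 to 0.24). Polr2f was at 7.52 and 6.57 against 8.25 and 10.2 CPM, and its log2 fold change of 0.39 (SE 0.224) did not pass (adjusted p = 0.471, edgeR). Polr2k was at 3.78 and 4.45 against 4.24 and 5.31 CPM. Polr2h, with only 59 and 41 against 60 and 94 counts, had a log2 fold change of 0.38 and an interval from -0.29 to 1.04, which at this depth leaves room for a change of 1 on the log2 scale. None of these groups but those of Polr2f stood apart.

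Per kb of annotated exon, Polr2a had the highest level of the 10 genes in Tdrd6+/- cells, at 36.5 ± 0.485 CPM per kb, followed by Polr2b at 28.2 ± 3.61, Polr2g at 20.98 ± 1.99 and Polr2i at 18.1 ± 3.68 CPM per kb. Polr2g and Polr2i did not differ beyond their spread. Polr2d followed at 13.8 and 10.2 in the single samples, then Polr2e at 9.86 ± 0.0300, Polr2k at 6.60 ± 0.760, Polr2c at 6.31 ± 0.0266, Polr2f at 2.71 ± 0.260 and Polr2h at 1.23 ± 0.366 CPM per kb, and within this series Polr2d and Polr2e, and Polr2k and Polr2c, lay within their spread. In Tdrd6-/- cells Polr2a, at 10.1 ± 1.25 CPM per kb, came after Polr2b, Polr2i, Polr2g and Polr2d. Exon lengths cover every annotated transcript of a gene, which lowers the values of genes with long rare exons.

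**Figure D2:**
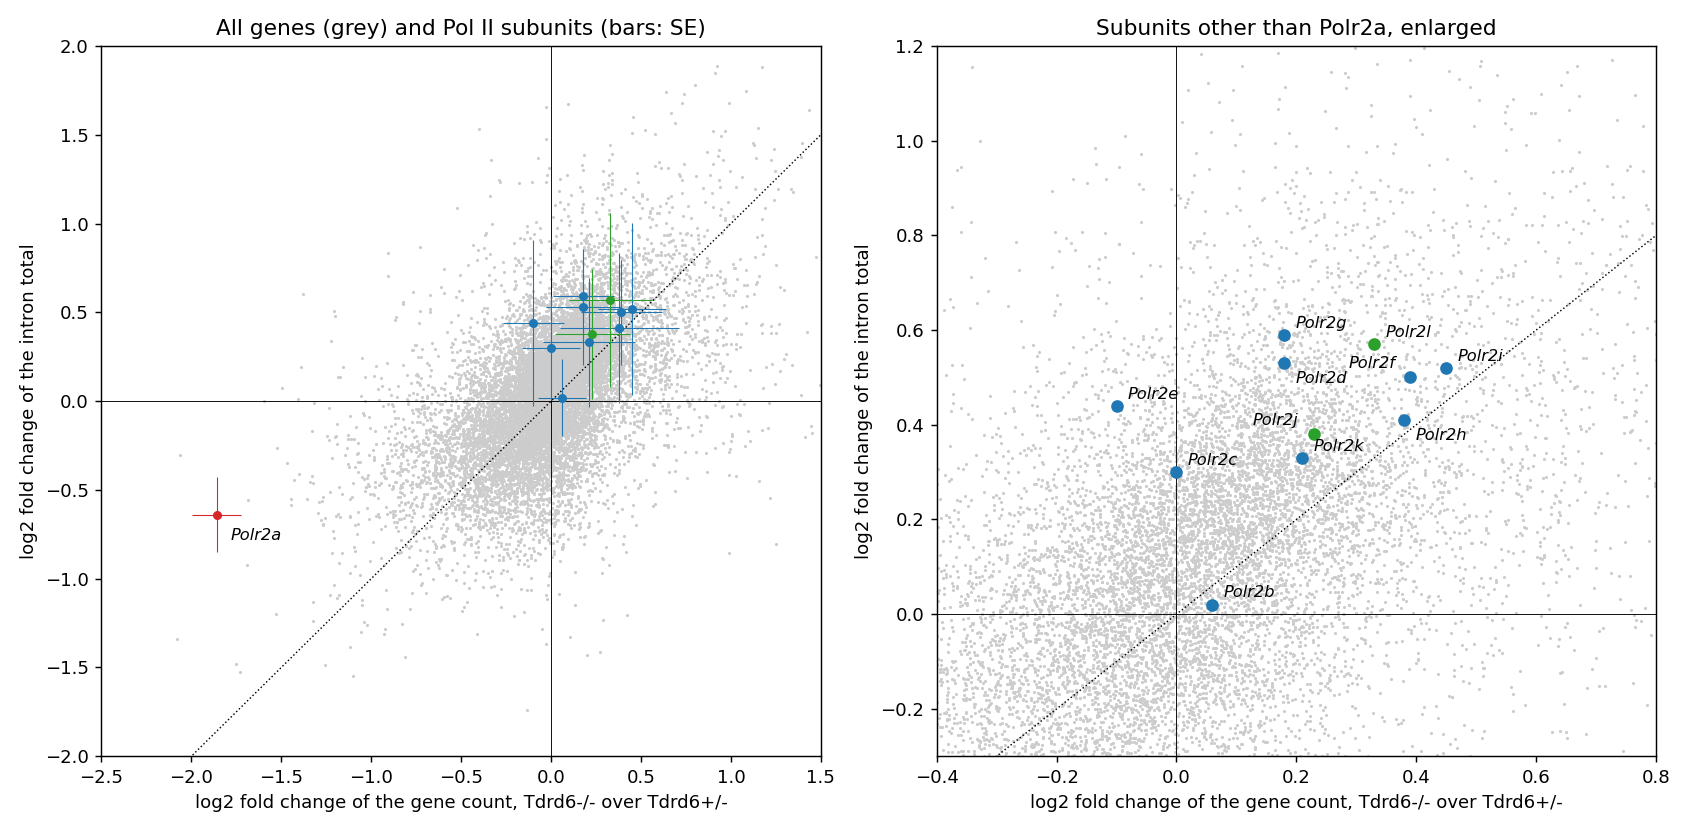
Log2 fold change of the gene count against that of the intron total, Tdrd6-/- over Tdrd6+/-; grey points are all genes in both fits, red is Polr2a, blue the other 9 members, green Polr2j and Polr2l, bars in the left panel are SE, the dotted line marks equal change, and genes beyond the axes are not drawn. Polr2a lies far to the left at -1.86 and -0.64, and the other subunits lie near or above the origin (enlarged in the right panel, without error bars).

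No intron total of the 9 other subunits was called. All 9 log2 fold changes were positive, from 0.02 to 0.59 with a median of 0.44, against a median of 0.068 and 57% above 0 over all genes tested. Intron counts were 30.95% and 27.11% of the fragments tallied with them in Tdrd6+/- and 27.43% and 21.94% in Tdrd6-/- cells. Scaling to intron counts only removes such differences between samples. Without Tdrd6-/- sample 2 the median was 0.20, and Polr2b, Polr2e and Polr2i were below 0, at -0.16, -0.38 and -0.13. In 5 of the 9 both Tdrd6-/- samples exceeded both Tdrd6+/- samples, as did 22.1% of all genes, and in none did both lie below. None passed edgeR's test at a false discovery rate of 0.1, at which edgeR called 1.42% of genes (0.173% higher and 1.25% lower). An unadjusted p under 0.05 was seen for 1 of the 9 by edgeR and 1 by DESeq2, and by edgeR for 1918 of 15025 genes. DESeq2 gave an adjusted p for only 1 of the 9, Polr2b, because of its filter on the mean count. By edgeR the gene was Polr2g, with 186 and 182 against 260 and 263 intron counts and a log2 fold change of 0.59 (SE 0.256, adjusted p = 0.297 by edgeR's quasi-likelihood test). Without Tdrd6-/- sample 1 its adjusted p by edgeR was 0.0617. Several totals were small, the lowest being Polr2i with 18 and 14 against 16 and 27 counts.

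Set against their own gene counts, the introns of no other subunit were called. The difference of the intron change and the gene change ran from -0.08 for Polr2b to 0.48 for Polr2e, and no adjusted p by edgeR was below 0.412. Of the 9, 1 had an unadjusted p under 0.05, again Polr2g at 0.37 (SE 0.182), as did 1800 of all 15589 genes. With 1 scaling factor per sample, which moved the median of all genes by -0.27, 3 of the 9 were positive in place of 8. In the same fit edgeR called 2.38% of genes, 0.712% higher and 1.67% lower in Tdrd6-/- cells. In Polr2b there were 21.02 and 19.9 intron counts per 100 gene counts in Tdrd6+/- and 17.1 and 14.9 in Tdrd6-/- cells, the opposite direction to Polr2a, and this ratio is of raw counts, not scaled for the intron total of each sample.

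**Figure D3:**
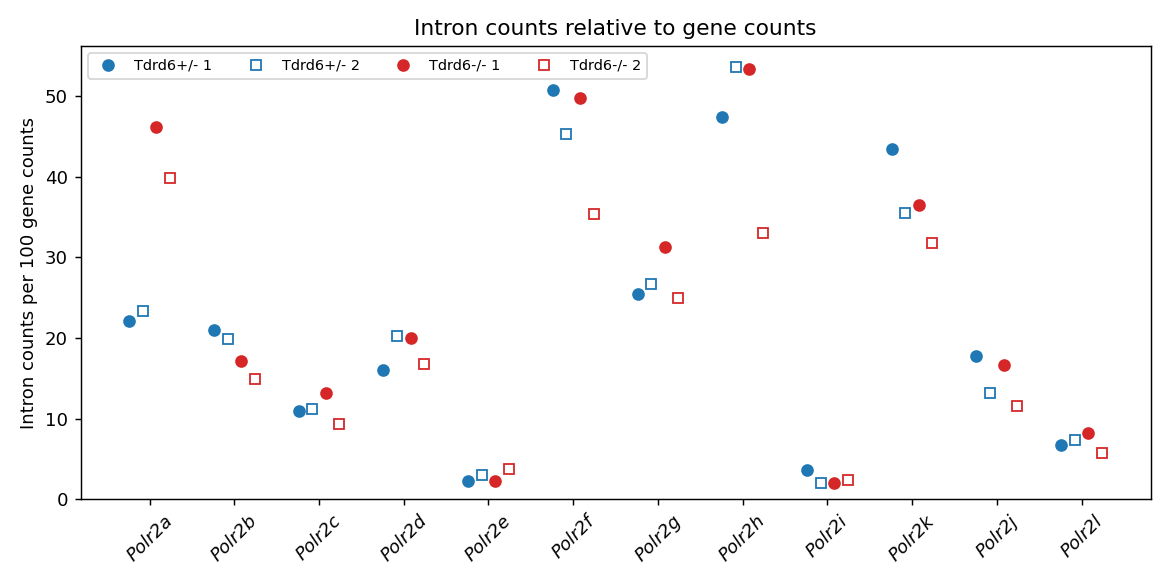
Intron counts per 100 gene counts of each subunit in the 4 samples, from raw counts with the axis starting at 0; marks as in the plot of levels. Polr2a rises from 22.1 and 23.3 to 46.2 and 39.9, while in 10 of the 11 other genes shown the genotypes overlap, the exception being Polr2b, where both Tdrd6-/- samples are lower.

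Within the 9 other genes no intron, exon segment or junction was called for a changed share of its gene. Of 57 introns 53 had at least 10 counts. Both Tdrd6-/- samples were higher in 19 of the 53, against 17.9% of all introns with at least 10 counts. Both were lower in 7 of the 53, against 20.9%. In the DESeq2 fit only 2 passed the filter on the mean count, intron 18 of Polr2b and the intron numbered 5 of Polr2g. Neither was called for usage (adjusted p = 0.849 and 0.994 by its likelihood ratio test), while 1.94% of introns tested were (0.716% higher and 1.22% lower). An unadjusted p under 0.05 was seen for 1 intron, of Polr2d, and for none by edgeR. Intron 18 of Polr2b, the most abundant intron of that gene, had 79 and 85 against 87 and 98 counts. Intron 5 of Polr2g had 73 and 69 against 102 and 102 counts, both Tdrd6-/- samples being higher. In the other genes the most abundant intron had between 48 and 290 counts in total, and its log2 ratio of mean CPM lay between 0.01 and 0.69. Of 183 exon segments and junctions, 134 were tested by DESeq2 and none was called, with 1 at an unadjusted p under 0.05, where 0.207% of all features tested were called (0.137% higher and 0.0702% lower). The usage test of edgeR called none in either class, with 1 exon segment or junction at an unadjusted p under 0.05.

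Of 3 further polypeptides of the enzyme or bound to it, Polr2j and Polr2l, which are both subunits, were at 10.1 and 9.76 against 10.4 and 12.9 CPM and at 8.44 and 6.78 against 8.10 and 11.0 CPM. Their log2 fold changes were 0.23 and 0.33 (adjusted p = 0.701 and 0.596, edgeR). Polr2m, which encodes an inhibitory factor bound to the polymerase, shared its gene row with Myzap and another gene, and that row had a log2 fold change of -0.07 (adjusted p = 0.902, edgeR). Lists of related genes were counted in the same fit, where the share called was 4.8%. Of 19 subunits of RNA polymerases I and III, 1 was lower, the polymerase III subunit Polr3c, at 66.5 and 60.2 against 47.1 and 44.99 CPM (log2 fold change -0.46, adjusted p = 0.0890, edgeR), and none was higher. The median of that list was 0.10. Of 16 genes for assembly and nuclear import of the enzyme, 1 was lower, the prefoldin subunit Pfdn2, at 11.7 and 14.8 against 8.16 and 7.16 CPM (log2 fold change -0.79, adjusted p = 0.0431, edgeR), and the median was 0.03.

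Of 20 general transcription factors, 1 was lower, the TFIIA subunit Gtf2a1, at 192 and 166 against 129 and 127 CPM (log2 fold change -0.48, adjusted p = 0.0452, edgeR), with a median of 0.10. Of 16 TBP-associated factors none was called by edgeR, and their median was 0.11. The median of all genes in the fit was 0.012. Each of these 3 calls was lost without one of the samples. Polr3c was not called without Tdrd6+/- sample 1 (adjusted p = 0.292), Tdrd6-/- sample 1 (0.270) or Tdrd6-/- sample 2 (0.654). Pfdn2 was not called without Tdrd6+/- sample 2 (adjusted p = 0.183) or Tdrd6-/- sample 2 (0.392), and Gtf2a1 was not called without Tdrd6+/- sample 1 (0.210), Tdrd6-/- sample 1 (0.220) or Tdrd6-/- sample 2 (0.432), all by edgeR.

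Next to Polr2a, the gene Slc35g3 lies 1252 bases beyond its 5′ end. It was weakly counted, with 24 and 46 counts in Tdrd6+/- and 98 and 97 in Tdrd6-/- cells, and its level rose (log2 fold change 1.25, SE 0.333, adjusted p = 0.0402, edgeR). Without Tdrd6+/- sample 1 the adjusted p by edgeR was 0.309. Zbtb4, which lies 7274 bases away on the same side, was at 18.8 and 18.2 against 17.2 and 13.8 CPM (log2 fold change -0.26, adjusted p = 0.607, edgeR). Both were named for their position and not by the rule used for the other genes. By pattern over the 4 samples, the genes most like Polr2a included 1110020A21Rik, Supt3 and Qser1, whose log2 CPM, centred on the mean of each gene, differed from that of Polr2a by a root mean square of 0.133, 0.204 and 0.206. Supt3, which encodes a subunit of the SAGA coactivator, was at 29.5 and 39.6 CPM in Tdrd6+/- and 11.0 and 10.4 CPM in Tdrd6-/- cells. Qser1 was at 161 and 142 against 62.3 and 47.1 CPM, and 1110020A21Rik at 20.1 and 22.6 against 6.64 and 6.19 CPM. These genes were picked for their likeness to Polr2a, which fixes the direction.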

How the data were processed

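The authors used GSNAP with the mm10 genome and Ensembl release 75, and deposited raw counts per intron, gene, exon segment and junction; base calls came from bcl2fastq 1.8.4 per the labels. The counting program is not given in the sources used here. Gene counts, intron totals and their difference were tested on the deposited counts with the quasi-likelihood test of edgeR 4.0.16 in R 4.3.3, after filterByExpr and TMM scaling, at a false discovery rate of 0.1 (Benjamini-Hochberg). Intron totals were scaled to intron counts only. DEXSeq and JunctionSeq, used in the study, were replaced by the same models in DESeq2 1.42.0 (features of at least 10 counts, likelihood ratio test, independent filtering on the mean count). Features carry numbers only. They were placed on GENCODE M21 where their number matched the annotation, in chromosome order. CPM per kb used annotated exon length. SD and n refer to samples. Scripts were tested on simulated data. For log2 changes of 1, the fits found 90.5% in gene counts and 86.5% in intron totals. Of such changes in introns against gene counts only 47.0% were found, so a missing call there is weak evidence. These shares were not split by count, and they may not hold for subunits with few counts. Examples are Polr2h, with 41 to 94 gene counts per sample, and Polr2i, with 14 to 27 intron counts. For such subunits the chance of finding a change was not tested. Usage was simulated only for changes of 2. There 22.0% of the calls of exon and junction usage and 11.1% of those of intron usage were false. For changes of 1 and 2 the false share was 10.8% and 11.9% in gene counts and 4.42% and 14.5% in intron totals. In introns against gene counts it was 10.5% and 8.68%.

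The members and lists were chosen with earlier results of these data known. Named genes were every member, list genes called at the threshold, and the 5 genes closest to Polr2a in pattern (pseudocount 0.5 CPM), of which 3 are reported here. Alternatives were other tests, scalings and filters, a stricter threshold, a replicate block and leaving out each sample. The 5′ to 3′ split, first-intron measures and the crossed pairing were added after the data were seen. They needed at least 10 placed features and a mean of 100 counts in each part. Replicates differed by far more than sampling noise (chi-square of 23.1 per degree of freedom for Tdrd6+/-, 20.1 for Tdrd6-/-), so each counted as 1 sample. Counts in the range of 10 to 100 leave large errors, as the intervals show.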

Additional observations from a re-analysis of the deposited data

How the results depend on the processing

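The values of Polr2a kept their direction under all alternatives, from -1.99 to -1.73 for the gene count, -0.75 to -0.55 for the intron total and 0.92 to 1.28 for their difference. The difference between its 5′ and 3′ exon segments was 0.40 to 0.78 and that between its first and other introns 0.24 to 0.73 when 1 sample was left out. Of 244 values of the other 9 subunits that had an adjusted p under an alternative, 2 passed the threshold, so without 1 sample 0 to 1 of them were called in gene expression (Polr2i) and 0 to 1 in intron totals (Polr2g).

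Counts over all genes or features moved more, and the cause was not tested. Leaving out 1 sample, with the spread of the remaining one taken from the fit, gave 257 to 1064 genes in place of 794, 4 to 951 intron totals in place of 214, 55 to 759 intron against exon differences in place of 371, 4 to 1174 introns in place of 561, and 51 to 765 exon segments and junctions in place of 322. The lowest counts came without Tdrd6+/- sample 1 or Tdrd6-/- sample 2 and the highest without Tdrd6+/- sample 2 or Tdrd6-/- sample 1. Without a filter on low counts 75 genes were called. DESeq2 called 378 intron totals, and at a false discovery rate of 0.05 there were 112 intron totals, 232 differences and 327 introns. With 1 scaling factor per sample 191 differences were called, 7 higher and 184 lower in place of 111 and 260. edgeR's usage test called 2 introns and 80 exon segments and junctions.

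The labels do not say that samples with the same number belong together. The deviations of same-numbered samples from their group means correlated at -0.107 over 12347 genes and -0.085 over 11335 intron totals. With the replicate number as a block, 1046 genes, 189 intron totals, 323 differences, 881 introns and 302 exon segments and junctions were called, and none of the other 9 subunits in any of them. With the pairing crossed, 1175 genes and 82 intron totals were called. In the DESeq2 usage fit the filter on the mean count left only 2 of the 53 counted introns of the other subunits. The usage test of edgeR, which had no such filter, called none of their introns.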
